A study of Procambarus virginalis with 4 samples.

Results

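In 223 of 13478 listed genes (1.65%), gene body methylation was higher in both *Dnmt1* knockdown (KD) animals of the marbled crayfish than in both control animals. These genes were chosen by their measured values, since a gene entered the set when the lower of its KD values exceeded the higher of its control values. The set is thus the small counterpart to the 7574 genes (56.2%) that were lower in both KD animals than in either control. Because the values themselves formed the set, the levels and differences below are descriptions and carry no test. Directions refer to the values as listed, and 1981 genes met the rule after the animals were scaled to one common mean. Leaving out 1 animal relaxes the rule and gave between 455 genes (without control 2) and 1090 genes (without control 1).

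*Procambarus virginalis* is a parthenogenetic crayfish whose animals are genetic copies of one another. As controls, 2 animals were given double-stranded RNA against GFP, a jellyfish gene absent from the crayfish. The 2 KD animals received double-stranded RNA against *Dnmt1*, and hemocytes were taken from the hemolymph of all 4 animals at 28 days post-injection (dpi). Age, strain and further alleles are not given in the labels, and the injections are transient rather than a deletion. Each value is the average CpG methylation of 1 gene in 1 animal from whole-genome bisulfite sequencing (WGBS), where bisulfite turns unmethylated cytosines into bases read as thymine. The table lists no coverage, so the depth behind a value is unknown, and exact permutation over 2 animals against 2 cannot give a p-value below 0.333.

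DNA methylation of CpG sites is copied onto the new strand after replication by *Dnmt1*, the maintenance methyltransferase, and is passively diluted when copying fails. *De novo* methyltransferases can add methylation at unmethylated sites, and Tet enzymes start its removal. In many invertebrates, including crustaceans, methylation is concentrated in the bodies of a subset of genes, while other genes carry very little. Hemocytes are the circulating immune cells of the crayfish and comprise several cell types. A methylation average over mixed hemocytes does not separate a changed mixture of cells from changed methylation within a cell. The table lists gene models without names, so no function is given for any of them, and neither *Dnmt1* nor hemocyte markers could be looked up.

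The largest difference was found in the gene model WNGS01092210.1252009_0_covsplit, where neither control had any listed methylation (0%), KD 1 had 28.6% and KD 2 had 42.9%. The KD average was 35.7 percentage points higher, and the KD animals differed by 14.3 points between them. A very different starting level was seen in WNGS01092210.1250953_0_covsplit, with 50% and 20% in the controls and 62.5% and 60.0% in KD 1 and KD 2. Here the KD animals agreed closely, while the controls lay 30 points apart. This spread exceeded the difference of 26.3 points between the group averages, which was 11.3 without control 2 and 41.3 without control 1.

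In WNGS01021996.697235_0_covsplit, the controls were at 22.5% (control 1) and 0% (control 2), and the KD animals at 26.1% (KD 1) and 45.9% (KD 2). KD 1 thus lay only 3.57 points above control 1, although the averages differed by 24.8 points. WNGS01094598.1295712_0_covsplit was at 7.5% and 7.74% in the controls and at 28.8% and 35.0% in KD 1 and KD 2. Both controls were nearly equal in this gene, and the gap of 21.0 points between the higher control and the lower KD animal exceeded the spread within either group. The set also held well methylated genes, such as WNGS01162472.1983009_0_covsplit, with 62.5% and 44.4% in the controls and 73.7% and 80.0% in KD 1 and KD 2.

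Control 1 was at 0% and control 2 at 18.3% in WNGS01164858.2205135_0_covsplit, against 34.2% in KD 1 and 30% in KD 2. The gene model WNGS01008307.520354_2_covsplit was tightly grouped, with 2.86% and 5.87% in the controls and 27.2% and 23.4% in KD 1 and KD 2. Its gap of 17.5 points was over 4 times the difference between its KD animals, which was 3.81 points. WNGS01161587.1946950_0_covsplit was at 0% in both controls and at exactly 20% in both KD animals, a level that 49 rows shared in KD 1 and 115 rows in KD 2.

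The 10 largest differences were completed by WNGS01053955.970440_0_covsplit, at 20% and 40% in the controls and 55.6% and 42.9% in KD 1 and KD 2, and by WNGS01041213.837505_4_covsplit, at 18.5% and 11.1% against 40.5% and 26.7%. In both genes, the nearest control and KD animals lay closer to each other than the KD animals did. The first of them was separated by only 2.86 points. Leaving out 1 animal lowered the difference by over 1.5 times in 6 of the 10 genes, for example to 13.5 points in WNGS01021996.697235_0_covsplit without control 2 and to 9.21 points in WNGS01053955.970440_0_covsplit without control 1. It left at least 28.6 points in WNGS01092210.1252009_0_covsplit, 21.2 points in WNGS01094598.1295712_0_covsplit and 19.0 points in WNGS01008307.520354_2_covsplit. In the first of these, 25 rows shared the value of KD 1 and 15 rows that of KD 2. In the second, 7 rows shared the value of control 1 and 13 rows that of KD 2. At most 4 rows shared a value of the third in any animal. Across these 10 genes, KD 1 was the higher KD animal in some and KD 2 in others, and the same held for the controls.

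**Figure D1:**
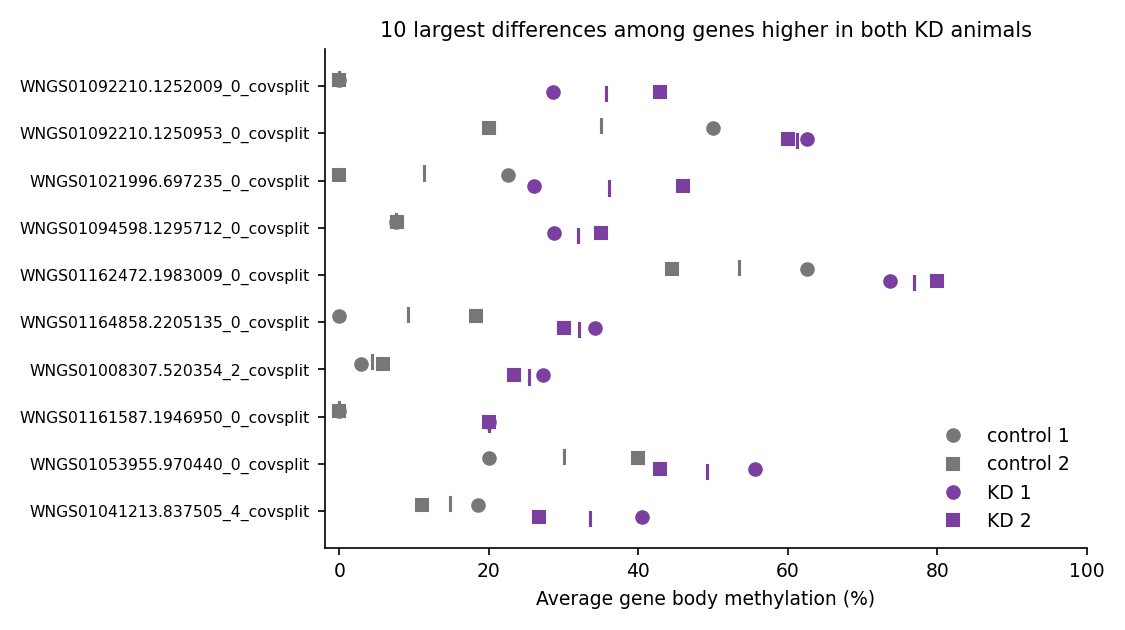
Average gene body methylation (x axis, %) of the 10 genes with the largest difference between group averages, among those higher in both KD animals. Circles mark animals 1 and squares animals 2, controls in gray and KD in purple, and short vertical lines give the group averages; KD points lie to the right of both controls in each gene, with a gap from 2.86 points in WNGS01053955.970440_0_covsplit to 28.6 points in WNGS01092210.1252009_0_covsplit.

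Most genes of the set differed far less. The median difference between the group averages was 3.54 percentage points (quartiles 1.82 and 7.62, range 0.0982 to 35.7), whereas over all 13478 genes the median was -5.18 points. Measured from the control average, KD 1 was higher by a median of 3.14 points and KD 2 by 3.57 points. A difference of over 1 point was reached by 187 of the 223 genes, one of over 5 points by 86 and one of over 20 points by 7. The study called a gene differentially methylated when the averages differed by more than 10 points. By this rule, 76 of all 13478 genes (0.564%) were higher in KD animals, and 41 of them belonged to the set. As the same contrast chose the set, these counts are given without further reading.

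The spread between animals of one group was smaller at the median but not in every gene. Within the set, the median difference between the controls was 1.18 points and that between the KD animals 1.98 points. The difference of the averages was larger than both within-group differences in 141 genes (63.2%) and not in the remaining 82 (36.8%). By the rule, it always exceeds the mean of both within-group differences, so this share follows in part from the selection. Under the stricter demand that even the gap between the lower KD and the higher control value exceed both, 67 genes (30%) remained. That gap had a median of 1.26 points and reached 10 points in 12 genes.

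The 5 widest gaps were found in 4 genes already described, WNGS01092210.1252009_0_covsplit (28.6 points), WNGS01094598.1295712_0_covsplit (21.0 points), WNGS01161587.1946950_0_covsplit (20 points) and WNGS01008307.520354_2_covsplit (17.5 points), and in WNGS01165503.2373605 (14.1 points). The last had listed levels of 0% in both controls, 14.1% in KD 1 and 17.5% in KD 2.

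At the other end, the rule admitted genes by very small margins. In WNGS01164858.2218432, KD 1 lay 0.0025 points above control 2, both near 13.95%, although KD 2 stood at 32.0% and control 1 at 11.7%. WNGS01051041.941793_0_covsplit was included by 0.0098 points, with 6.07% and 4.28% in the controls and 6.22% and 6.08% in KD 1 and KD 2. WNGS01022157.697998_0_covsplit, WNGS01004511.294700_0_covsplit and WNGS01162062.1960418_0_covsplit followed with margins of 0.0136, 0.0209 and 0.0252 points.

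Just outside the rule, WNGS01161635.1948363 missed it by 0.0018 points, with 4.364% and 1.75% in the controls and 6.43% and 4.362% in KD 1 and KD 2. The next were WNGS01000683.80489_1_covsplit, WNGS01168704.2597425_0_covsplit, WNGS01161612.1947793_0_covsplit and WNGS01049456.932363_1_covsplit, which fell short by between 0.0063 and 0.0258 points. Their levels differed widely, and only the margins were alike on both sides of the boundary.

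The control levels of the set were low. The median was 2.78% in control 1 and 1.85% in control 2, and the control average had a median of 2.50% with quartiles of 0.522% and 5.54%. Over all genes, the median control average was 13.4%. A control average under 5% was found in 161 genes of the set (72.2%), compared with 3972 of all genes (29.5%). At 10% or more, the set held 31 genes (13.9%) and the whole data set held 7720 (57.3%). KD levels were accordingly modest, with medians of 6.11% in KD 1 and 7.12% in KD 2. No gene of the set was listed at 100% in any animal, compared with 297 of all genes (2.2%). For the controls this follows from the rule, since a value of 100% cannot be exceeded.

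The exceptions at high levels were few. WNGS01051455.944010_0_covsplit had the highest control average, with 75.7% and 56.4% in the controls and 84.5% and 81.7% in KD 1 and KD 2. It was followed by WNGS01162472.1983009_0_covsplit, which is described above, and these were the only 2 genes of the set with a control average of 50% or more, out of 2823 in the table. WNGS01092358.1283513_0_covsplit had 42.9% and 40% in the controls, 45.5% in KD 1 and 71.4% in KD 2, so that most of its difference came from 1 animal. WNGS01092210.1250953_0_covsplit ranked next. Last among the 5 highest was WNGS01076877.1150100_0_covsplit, with 30% and 33.3% against 37.5% and 40%.

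In classes formed by the mean level of the 4 animals, the share belonging to the set was highest up to 5% and lower in each class above. It was 29 of 839 genes (3.46%) above 0% and up to 1%, 85 of 2247 (3.78%) up to 5% and 58 of 2046 (2.83%) up to 10%. Above this level, the share was 1.5% up to 20%, 0.799% up to 30% and 0.341% up to 50%. Only 2 of 2085 genes (0.0959%) above 50% were in the set. Over the same classes, the share of genes with both KD animals below both controls grew from 17.9% to 90.3%.

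**Figure D2:**
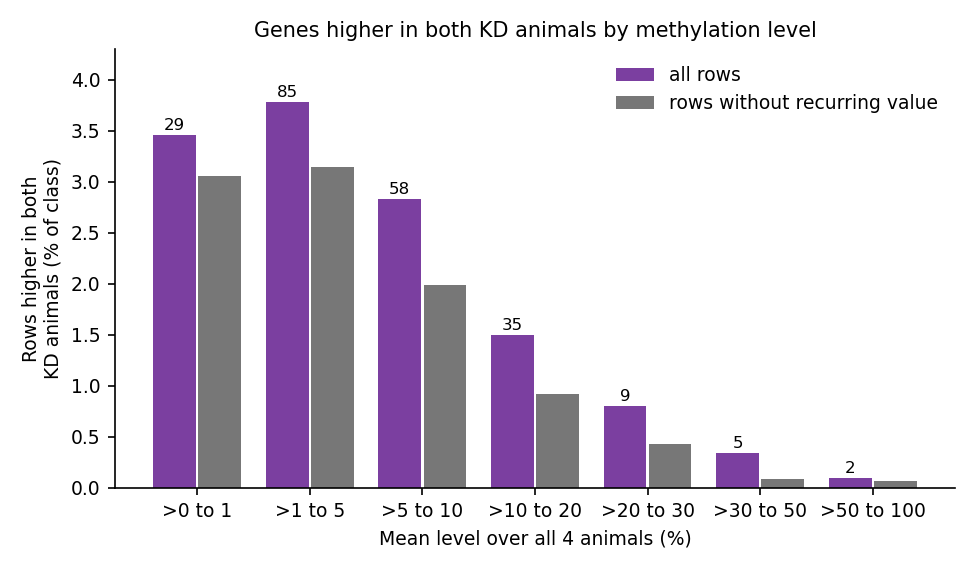
Share of genes that were higher in both KD animals (y axis, % of the class) in classes of the mean methylation over all 4 animals (x axis, %). Purple bars cover all genes of a class, with the number in the set above each bar, and gray bars cover genes without a recurring value (explained in the text); the share was 3.46% and 3.78% in the 2 lowest classes and 0.0959% in the highest.

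The differences grew with the level at which they were seen. The median difference was 0.564 points in the 29 genes up to 1%, 2.53 points in the 85 genes up to 5% and 5.56 points in the 58 genes up to 10%. It reached 9.27 points in the 35 genes above 10% and up to 20%. A low mean level bounds the difference a gene can show, so this order follows in part from the classes. In the 135 genes in which both controls were above 0%, the KD average was 1.80 times the control average at the median (quartiles 1.44 and 2.38, range 1.05 to 5.80), and it was at least 2 times as high in 59 of them.

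Some controls in the set were listed at 0%. Both controls were at 0% in 34 genes (15.2%), compared with 1608 of all genes (11.9%). Only 1 control was at 0% in 54 genes (24.2%), namely control 1 in 16 genes and control 2 in 38. Over all genes, control 1 was at 0% in 1911 and control 2 in 2332, each including the 1608. A control at 0% is exceeded by any KD value above 0%, so these counts follow in part from the rule. In the 34 genes without any listed control methylation, KD 1 ranged from 0.133% to 28.6% and KD 2 from 0.146% to 42.9%, and the median KD average was 3.32%. No fold is given for them. The median differences of these 34, 54 and 135 genes were 3.32, 4.82 and 3.18 points. A difference above 10 points was present in 8, 14 and 19 of them, respectively.

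These 34 genes can be set beside all 1608 genes listed at 0% in both controls. Of the latter, 1331 (82.8%) were also at 0% in both KD animals, 243 (15.1%) were above 0% in 1 KD animal and 34 (2.11%) in both. In the reverse direction, 1932 genes were at 0% in both KD animals, of which 412 (21.3%) were above 0% in 1 control and 189 (9.78%) in both. Genes with methylation listed in both animals of only 1 group were therefore more numerous for the controls than for the KD animals. The depth behind a listed 0% is unknown.

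Many values in the table are not unique to a gene. A value between 0% and 100% was taken as recurring when it stood, with all its digits, in at least 5 rows of the same animal, and values such as 20% or 28.6% are of this kind. At least 1 recurring value was carried by 99 genes of the set (44.4%), compared with 2927 of all genes (21.7%) and 1335 of the 7574 genes lower in both KD animals (17.6%). By animal, the share in the set was 11.2% for control 1 and 17.5% for control 2, against 19.7% for KD 1 and 31.4% for KD 2. The corresponding shares of all genes were 7.13%, 9.70%, 8.09% and 12.1%. A listed 0% cannot count as recurring, and the rule keeps KD values of the set above 0% but not control values. The lower shares of the controls in the set therefore follow in part from the definitions. The 1331 genes at 0% in all 4 animals can neither carry a recurring value nor enter the set, which lowers the shares of all genes. In both groups, the animal with the larger share had the library of lower depth in the sequencing details of the study. Whether library depth contributes to these shares was not tested. In 42 genes the recurring value was in 1 animal only, in 39 in 2 animals, in 14 in 3 animals and in 4 in all 4 animals.

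Recurring values were most common among the large differences. They were found in 29 of the 41 genes (70.7%) above 10 points, in 70 of the other 182 (38.5%) and in 14 of the 64 genes (21.9%) at 2 points or less. The median difference was 5.37 points in the 99 genes with a recurring value and 2.55 points in the 124 without, while the median control averages were 2.08% and 3.01%. Of all genes with a recurring value, 3.38% were in the set, against 1.18% of those without. Whether the number of reads or CpGs behind these values contributes to the differences was not tested, since the table lists neither.

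Among the 124 genes without recurring values, the largest differences were in WNGS01021996.697235_0_covsplit and WNGS01008307.520354_2_covsplit, given above. All others of the 10 largest differences carried a recurring value. In WNGS01092210.1250953_0_covsplit and WNGS01053955.970440_0_covsplit it was in all 4 animals. The next gene without one was WNGS01164858.2234334, with 18.0% and 5.71% in the controls and 34.8% and 24.7% in KD 1 and KD 2, a difference of 17.9 points. WNGS01051455.944010_0_covsplit (17.1 points) and WNGS01165503.2373605 (15.8 points) ranked next. In all, 12 genes without a recurring value exceeded 10 points.

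**Figure D3:**
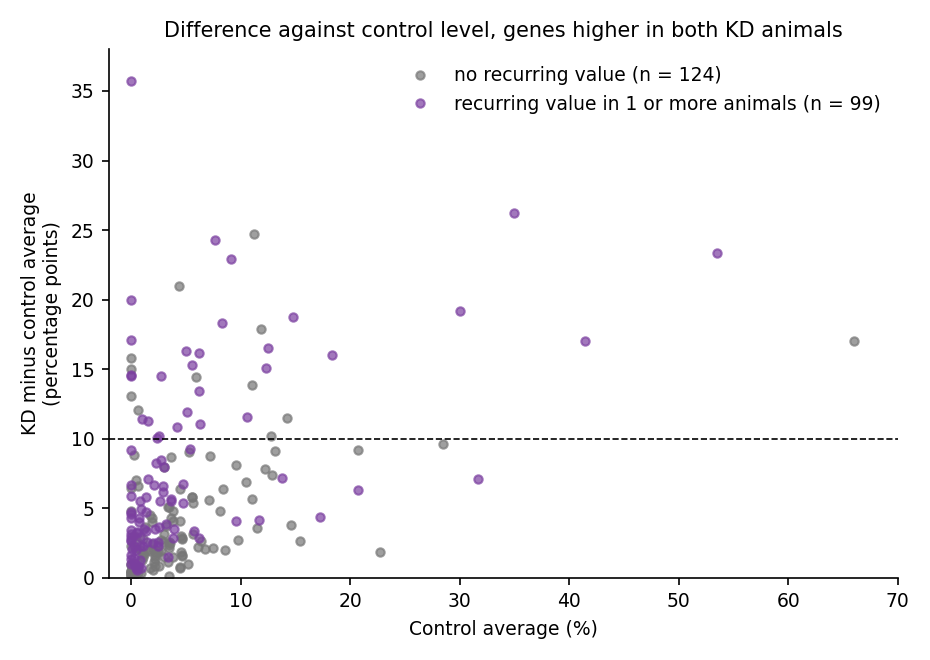
Difference between the KD and the control average (y axis, percentage points) against the control average (x axis, %) for each of the 223 genes higher in both KD animals. Purple points are the 99 genes with a recurring value in at least 1 animal, gray points the 124 without; the dashed line marks 10 points, above which 29 of 41 genes had a recurring value, and most points crowd at a control average under 5%.

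The genes of the set were compared with those that also had a higher KD average but in which the animals of the groups overlapped or tied. The KD average was higher in 1400 genes, of which 223 (15.9%) formed the set and 1177 (84.1%) did not. Their control levels lay close together, with medians of 2.50% and 2.86%, as did the shares with a recurring value, 44.4% and 41.8%. The median difference was 1.21 points in the overlapping genes, and the KD animals differed by a median of 4.08 points. Among genes above 10 points, the 35 overlapping genes showed a median difference of 28.8 points between KD 1 and KD 2, compared with 8.33 points in the 41 genes of the set, and 32 of the 35 carried a recurring value. Overlap at such a difference requires a wide spread within a group, so this contrast in spread follows in part from the definitions.

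KD 2 was the higher KD animal in 122 genes of the set and KD 1 in 98, with 3 ties. Over the whole table, KD 1 was above KD 2 in 6673 genes and below it in 4826. Control 1 was above control 2 in 130 genes of the set and below it in 58, with 35 ties, compared with 8335 and 3388 genes in the table. The means over all genes were 26.8% and 24.0% in controls 1 and 2 and 15.9% and 14.8% in KD 1 and KD 2. The rule acts on this order, since control 1 was more often the value to be exceeded.

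For a sense of scale, the 4 columns were also ordered in the other possible ways, as counts only. Both animals numbered 1 lay above both animals numbered 2 in 1297 genes and below them in 473. Control 1 and KD 2 lay above control 2 and KD 1 in 1315 genes and below them in 523. The 223 genes of the set were thus the smallest of these classes, as were the 124 that remained without recurring values, where the other orders held between 304 and 982 genes, apart from the 6239 with both controls above both KD animals. The median difference between the averages was 5.18, 5.22, 4.52 and 4.92 points in the other 4 orders, all above the 3.54 points of the set. Their median levels were also higher, at 7.45%, 7.94%, 7.63% and 6.95% against 4.79% in the set. Whether the level contributes to the smaller differences of the set was not tested. A difference above 10 points was present in 345 of 1297, 136 of 473, 279 of 1315 and 140 of 523 genes, compared with 41 of 223. At least 1 recurring value was carried by 29.5%, 35.7%, 25.3% and 39.0% of their genes, compared with 44.4% of the set. By the sequencing details of the study, libraries with the same number were alike in raw reads, depth and mapping efficiency. These features differed between the numbers in both groups. Whether same-numbered animals share anything else is not known.

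The text before the first dot of an identifier, here called its prefix, is shared by gene models listed together. The 223 genes were spread over 200 of the 8115 prefixes in the table. A single gene of the set was present on 189 prefixes, 2 genes on 8 and more on 3. On prefixes with only 1 row in the table lay 119 genes of the set (53.4%), compared with 6492 of all genes (48.2%). Prefixes with 2 to 10 rows held 63 genes of the set (28.3%) and 28.4% of all genes. The spread over small and large prefixes was therefore close to that of the table. No position or annotation was used that would say what a prefix stands for.

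The prefix with the most genes of the set was WNGS01164858, with 9 of its 427 rows (2.11%). Their differences ranged from 0.673 to 22.9 points, and their control averages from 0.466% to 12.8%. On the same prefix, 265 rows (62.1%) were lower in both KD animals, and the rows outside the set had a median difference of -14.6 points. WNGS01092210 held 5 genes of the set among 311 rows (1.61%), including the 2 with the largest differences, while its other rows had a median difference of -10.02 points. WNGS01164437 held 4 among 452 rows (0.885%), with differences from 0.233 to 15.3 points, and WNGS01169498, which is also among the 4 prefixes with the most rows, held 2 among 371 (0.539%). In all, these 4 prefixes held 20 of 1561 rows (1.28%) and the other prefixes 203 of 11917 (1.70%).

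The remaining 7 prefixes with 2 genes of the set held from 2 to 81 rows. Both rows of WNGS01160212 were in the set, WNGS01160212.1868960_1_covsplit with 0% and 0% in the controls against 0.952% and 4.44% in KD 1 and KD 2, and WNGS01160212.1868955_0_covsplit at 0.625% and 0% against 1.79% and 0.781%. Both had low levels and small differences. On WNGS01051041, 2 of 3 rows were in the set, and the third had a difference of -7.02 points. Neighbouring rows of the table on the same prefix were both in the set in only 3 instances.

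Rows on the same prefix as a gene of the set were set beside all 13255 rows outside the set, of which 1177 (8.88%) had a higher KD average and 57.1% were lower in both KD animals, with a median difference of -5.39 points. Leaving out the 4 prefixes with the most rows, there were 684 such rows outside the set, with a median difference of -3.76 points. The KD average was higher in 52 of them (7.60%), and 392 (57.3%) were lower in both KD animals. The 153 rows outside the set that stood directly beside one of its genes in the table, on the same prefix, had a median difference of -2.74 points, and 14 of them (9.15%) had a higher KD average. Both shares with a higher KD average were close to that of all rows outside the set.

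Some gene models are divided into several rows, each with its own number before the word covsplit. Within the set, 193 identifiers (86.5%) end in this word, compared with 87.1% of the table. Each of the 223 genes came from a different gene model, and 14 of these models had further rows, 23 in total. None of these 23 rows was in the set. Of these, 16 (69.6%) were lower in both KD animals than in either control, against 57.1% of all rows outside the set. The KD average was higher in 3 (13.0%), against 8.88%, and the median difference was -3.20 points.

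The contrast within a gene model was clearest in WNGS01164858.2205135. Its row 0 had the values given above, with 0% and 18.3% in the controls and 34.2% and 30% in KD 1 and KD 2. Row 1 was at 59.7% and 68.9% in the controls and at 23.9% and 32.8% in KD 1 and KD 2, a difference of -36.0 points. The differences of rows 2 and 3 were -15.3 and -7.02 points. In KD 2, rows 0 and 1 thus stood at similar levels (30% and 32.8%), while in KD 1 row 0 lay higher (34.2% against 23.9%). In both controls, row 0 lay far below row 1.

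A contrast of the same direction was present in WNGS01008307.520354, where row 2 is in the set. Row 3 of this model was at 12.5% and 2.50% in the controls and at 2.22% and 1.39% in KD 1 and KD 2. Control 2 lay close to the KD animals here, so most of the difference of -5.70 points came from control 1. In WNGS01041213.837505, row 4 is in the set, and row 5 was at 10.7% and 5.31% in the controls and at 4.56% and 3.15% in KD 1 and KD 2. At a low level, WNGS01163813.2085021 had row 19 in the set at 0.675% and 0.634% against 0.763% and 1.25%, while 5 of its 6 other rows had lower KD averages. Control levels differed within this model and reached 18.7% in control 1 and 14.8% in control 2 in row 17.

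**Figure D4:**
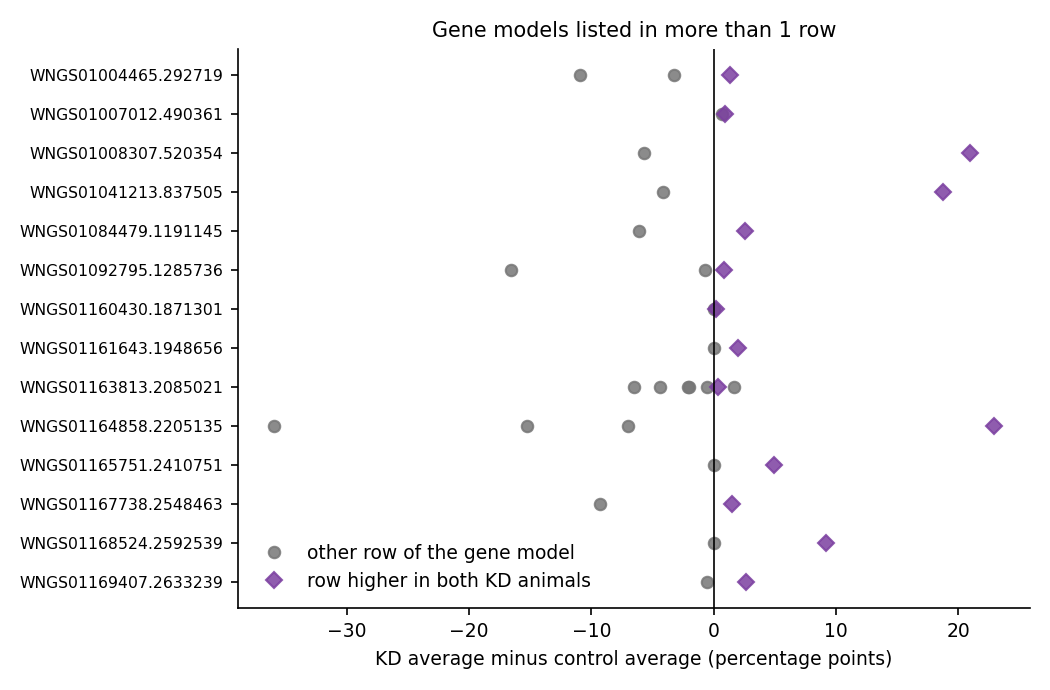
Difference between the KD and the control average (x axis, percentage points) for the 14 gene models (y axis) that have 1 row higher in both KD animals and at least 1 other row. Purple diamonds are the rows of the set, gray circles the 23 other rows, and the vertical line marks no difference; 16 of the other rows had both KD animals below both controls, down to -36.0 points in WNGS01164858.2205135.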

How the data were processed

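Gene body methylation was measured by WGBS in hemocytes of 2 control and 2 KD animals. According to the methods of the study, reads were trimmed with Trim Galore, aligned with Bismark and Bowtie2 and deduplicated, CpGs of low combined coverage were removed, and a gene needed at least 10 CpGs. The authors deposited 1 table of methylation fractions, averaged per gene and animal, which are given here as percent. No scaling between animals was stated, and the genome build is not given in the sources used here. Values have 6 significant digits and 0 are missing. The table gives no coverage, so the precision of a value is known only from the spread between 2 animals.

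Python (v3.11.15) with pandas (v2.3.3) was used to apply the selection rule to the values as listed, with no filter and no pseudocount. The selection was checked on simulated data. Differences are KD average minus control average. Genes are named by rank of difference, gap and control average, with 10 or 5 per list. The set and these lists were chosen with earlier results of these data known. Alternatives were leaving out each animal, margins, low levels, recurring values, scaling and a replicate block. No coverage-based or count-based test was possible.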

Additional observations from a re-analysis of the deposited data

How the results depend on the processing

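The count of 223 genes depends on its rule. It was 127 with a margin of at least 1 point between the groups, 34 with 5 points and 12 with 10 points. It was 109 and 52 among genes with a mean over the 4 animals of at least 5% and 10%, and 124 without recurring values. Leaving out 1 animal relaxes the rule by construction and gave 455 (without control 2) to 1090 (without control 1), with 952 without KD 1 and 811 without KD 2. After all animals were scaled to one mean, 1981 genes were higher in both KD animals, and 6964 after shifting them to one mean, so the direction is given for the deposited values. Counting identical rows once or gene models in place of rows left 223.

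The median difference of 3.54 points was 3.10 to 4.05 when each animal was left out (4.05 without control 1, 3.10 without control 2, 3.14 without KD 2), 2.55 without recurring values, and 7.39 and 11.5 at the 2 level minima. The 41 genes above 10 points became 86 at a cut-off of 5 points, 7 at 20 points and 12 without recurring values, and 34 to 46 when 1 animal was left out. The 44.4% with a recurring value became 52.9% when 3 rows sufficed, 33.2% when 10 were needed, 59.2% with values of 0% and 100% included, and 91.5% after rounding to 4 decimals, which merges low values. The same settings gave 26.7%, 16.1%, 39.9% and 60.8% of all genes. Without recurring values, the set lay on 114 prefixes. The median control level stayed within the difference between controls under its alternatives.

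Both groups carry the numbers 1 and 2 in their labels. The deviations of same-numbered animals had a correlation of 0.0020 over all genes, so they shared no gene-wise direction. A correlation over genes cannot detect a shared mean shift or a shared depth, so it does not decide whether the numbers pair the animals. Libraries with the same number were alike in raw reads, depth and mapping efficiency by the sequencing details of the study. With the replicate block, meaning KD above control within each number, 378 genes were counted, and 19 of the set exceeded 10 points within both numbers. The median difference with the block was 3.54 points. This equals the value without the block by arithmetic, so it cannot show whether the block matters.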
